A study of Mus musculus with 12 samples.

Results

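RNA sequencing of C2C12, a mouse myoblast line whose cells stop dividing and fuse into myotubes when serum is withdrawn, was compared between cells depleted of the ubiquitin ligase adaptor KEAP1 and control cells. Both groups were myoblasts kept in serum, transfected with siRNA at 30 nM and harvested at 48 h, with no genetic change to the line stated. The 3 siCONTROL libraries received a control siRNA and the 3 siKEAP1 libraries received 1 siRNA sequence against Keap1, so an effect of that sequence on other transcripts cannot be told apart from the loss of KEAP1. The comparison took in every gene with enough reads, 15122 of the 54532 genes in the deposited table, in 6 of the 12 libraries of the study. The other 6 libraries, transfected with siCCNF alone or with siKEAP1/siCCNF, entered the same model and are described at the end. Replicates were labelled as biological, and all came from 1 cell line.

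KEAP1 binds the transcription factor NRF2, the product of Nfe2l2, and presents it to a CUL3 ubiquitin ligase, so that NRF2 is degraded in cells without oxidative or electrophilic stress. When reactive cysteines of KEAP1 are modified, or when KEAP1 is lost, NRF2 accumulates, pairs with small MAF proteins and binds antioxidant response elements near genes for glutathione synthesis, NADPH supply, thioredoxin reduction, iron and heme handling and xenobiotic detoxification. Control of NRF2 runs mainly through protein stability, which mRNA levels do not measure.

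The 3 siCONTROL libraries held 18464209 to 22231732 reads assigned to genes and the 3 siKEAP1 libraries 21346088 to 24601929. Levels are given below as CPM, a gene's reads relative to the depth of its library, scaled by edgeR's TMM factors. The siCONTROL replicate 1 library stood apart from the other two: its counts differed from theirs by a chi-square per gene of 32.2 and 39.9, against 2.84 between siCONTROL 2 and 3 and 5.96 to 8.26 among the siKEAP1 libraries, and its deviations followed gene length (r = -0.305 across 15122 genes, which are not independent). Counts that lead a paragraph were therefore also computed without it. Among the other 6 libraries siKEAP1/siCCNF replicate 3 stood apart in the same way, by a chi-square per gene of 27.5 and 30.6 against 4.61 between the other two, with a length correlation of -0.276. The cells carried the myoblast markers fixed for the line, with Myod1, Myf5, Cdh15, Des and Itga7 all present, and their 8 myoblast markers summed to 1823 to 1993 CPM in siCONTROL and 1184 to 1211 CPM in siKEAP1. Some defining markers of other cells were at or under 3 counts in every one of the 6 libraries: Ptprc, Adgre1, Itgam and Cd3e for leukocytes, Kdr for endothelium, Epcam and Alb for epithelium, Adipoq, Plin1 and Lep for adipocytes, and Thy1, Lum and Fap for fibroblasts. The summed levels of these marker lists moved nonetheless: differentiated myocyte markers from 66.1 to 141 CPM down to 4.74 to 5.87 CPM, and fibroblast markers, which include the collagens of myoblasts, from 4670 to 5456 CPM down to 2539 to 2698 CPM. Adipocyte markers were at 55.5 to 60 CPM in siCONTROL and 79.7 to 84.6 CPM in siKEAP1. Of 3 measured adipocyte markers 2 rose, both by more than 2-fold, with a list median log2 fold change of 1.69. The largest was Fabp4, at or below 3 counts in every siCONTROL library, with a fitted log2 fold change of 4.94. Leukocyte markers, of which only Cd68 passed 3 counts, were at 0.672 to 1.36 and 5.39 to 10.1 CPM. Endothelial markers were at 0.672 to 1.36 and 2.32 to 3.02 CPM, and 1 of 3 measured rose. Among them Tek, also at or below 3 counts in every siCONTROL library, had the largest fitted value, 2.59. The part of other cells in these changes was not tested.

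Keap1 itself (ENSMUSG00000003308, chr9:21229730-21239361 in GRCm38) was measured at 90.0, 89.0 and 84.3 CPM in the siCONTROL libraries and at 12.3, 12.8 and 12.7 CPM in the siKEAP1 libraries. The groups did not overlap, and the siKEAP1 mean was 14.4% of the siCONTROL mean (log2 fold change -2.80 ± 0.085 SE, edgeR adjusted p = 2.32e-10, n = 3 per group). The labels of all 6 libraries thus fit the level of the targeted transcript.

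Many genes differed between siKEAP1 and siCONTROL. In edgeR's quasi-likelihood test 3083 genes (20.4% of those tested) rose and 3050 (20.2%) fell at a Benjamini-Hochberg adjusted p under 0.05, and among these 1148 (7.59%) rose and 587 (3.88%) fell by more than 2-fold. Large changes were mostly rises, with 476 genes higher and 152 lower by more than 4-fold, and 212 higher and 64 lower by more than 8-fold. The genes that rose more than 2-fold were lowly expressed in control cells, at a median of 1.26 CPM, compared with 7.75 CPM for the genes that fell and 23.5 CPM for all genes tested. The siCONTROL level is a term of the fold change that chose these genes. That choice favours low control levels among rises and higher ones among falls, so these medians are a description only. By mean CPM over the 6 libraries, 66 genes over 100 CPM rose and 57 fell by more than 2-fold, 5.06% of 2429 together. Of the 3128 genes with a mean between 1 and 10 CPM, 22.8% passed the same limits. All 3 libraries of siKEAP1 lay above all 3 of siCONTROL for 3902 genes (25.8%) and below them for 3879 (25.7%). The median over all genes tested was -0.012 on the log2 scale, the level against which the gene lists below are read. Counts of list members that rose or fell are likewise read against 20.4% and 20.2%.

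**Figure D1:**
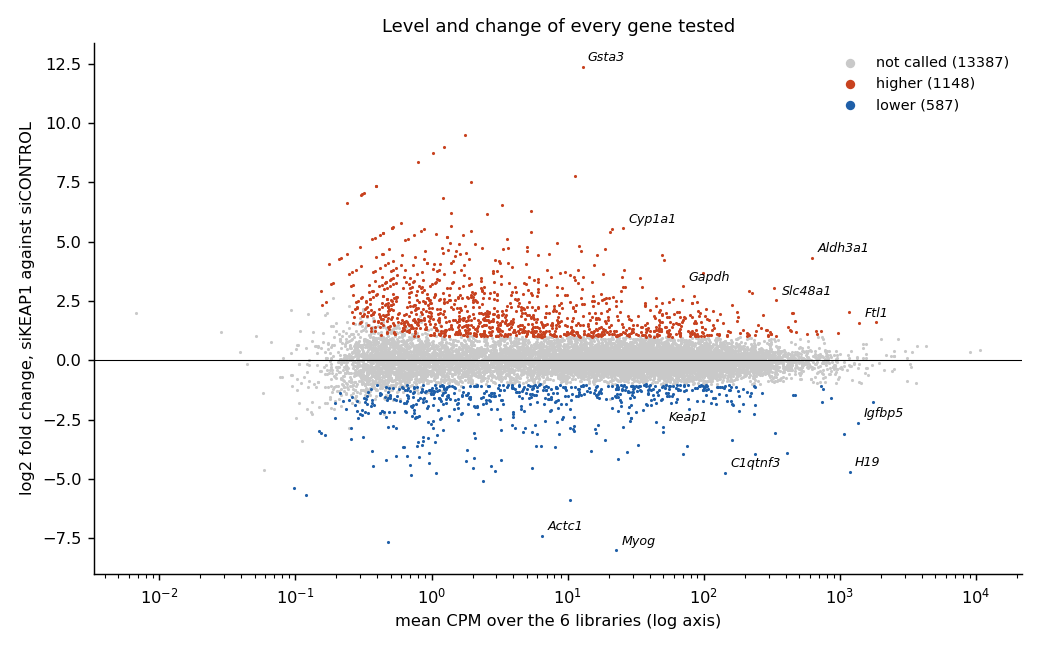
Each point is 1 of the 15122 genes tested, with its mean CPM over the 6 libraries on a log axis and its log2 fold change between siKEAP1 and siCONTROL. The 1148 genes higher by more than 2-fold at adjusted p under 0.05 are red and reach further from 0 than the 587 lower ones in blue, and both thin out to the right, where the more abundant genes lie.

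Apart from Keap1, no transcript of the ligases that turn NRF2 over passed the test, although Trip12 did under some alternatives. All 24 regulators listed were measured, and their median log2 fold change was -0.021, with 6 higher and 4 lower at adjusted p under 0.05. Both counts are near the shares over all genes tested, 20.4% higher and 20.2% lower. Cul3, the scaffold of the KEAP1 ligase, was at 151, 158 and 163 CPM in siCONTROL and 152, 140 and 148 CPM in siKEAP1 (log2 fold change -0.10 ± 0.063). Rbx1, its RING subunit, had a log2 fold change of -0.19, and Btrc and Fbxw11, the adaptors of a ligase that targets phosphorylated NRF2, 0.014 and -0.12. The values were -0.08 for Syvn1, an NRF2 ligase of the endoplasmic reticulum, 0.28 for Trip12, and -0.026 and 0.056 for the adaptors Dcaf11 and Fem1b. None of these 8 passed the test, and their libraries overlapped between the groups for all but Rbx1 and Trip12. Trip12 passed with the gene length trend removed (0.21, adjusted p = 0.00637) and with no low-count filter (0.27, adjusted p = 0.04).

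Nfe2l2, which encodes NRF2, was slightly lower in siKEAP1, at 145, 154 and 150 CPM against 175, 166 and 170 CPM (log2 fold change -0.19 ± 0.053, adjusted p = 0.0128). Its relative Nfe2l1 fell by 0.16 on the log2 scale, and Nfe2, another member of the family, was near 1 CPM in control and fell by 1.62. All 3 of these calls were lost when 1 library was left out: the adjusted p became 0.0505 for Nfe2l2 without siKEAP1 replicate 1, reached 0.0907 for Nfe2l1 without siCONTROL replicate 2 and 0.0645 for Nfe2 without siKEAP1 replicate 1. The remaining relatives Nfe2l3 (0.58) and Bach2 (-0.38) did not pass, and Bach1, a repressor that competes with NRF2 for the same elements, rose by 0.41 (adjusted p = 0.0196). That call was lost without siCONTROL replicate 1 (0.068), siKEAP1 replicate 1 (0.0519) or siKEAP1 replicate 3 (0.0648).

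The small MAF partners rose together. Maff was at 12.7, 12.9 and 12.7 CPM in control cells and at 26.0, 28.9 and 27.9 CPM after siKEAP1, a log2 fold change of 1.11. Mafk went from 17.6, 18.1 and 16.6 CPM to 30.2, 33.7 and 37.3 CPM (0.95) and Mafg from 92.5, 85.1 and 92.2 CPM to 166, 170 and 174 CPM (0.92, adjusted p = 2.56e-07). In each of the 3 genes every siKEAP1 library exceeded every siCONTROL library. Sqstm1, the autophagy receptor p62 that binds KEAP1 and is itself an NRF2 target, rose from 467, 417 and 421 CPM to 922, 938 and 910 CPM (1.09, adjusted p = 5.74e-08). Of the other KEAP1 partners and NRF2 kinases, Dpp3 rose by 0.19 at adjusted p = 0.0397, a call that was lost without any 1 of 5 libraries (adjusted p = 0.136 without siCONTROL replicate 2). Pgam5 (0.18), Palb2 (-0.017), Gsk3b (-0.11) and Gsk3a (-0.11) did not pass.

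Genes of glutathione synthesis rose. Of 15 measured genes for synthesis, cystine uptake and turnover, 10 rose and 1 fell, 6 of them rising by more than 2-fold, and the median log2 fold change was 0.92 (1.11 without siCONTROL replicate 1, when 10 rose and none fell). Gclc, the catalytic subunit of the rate-limiting ligase, stood at 47.3, 51.8 and 51.6 CPM in siCONTROL and at 384, 375 and 374 CPM in siKEAP1. That 7.52-fold rise (log2 fold change 2.91 ± 0.095, adjusted p = 2.86e-10) was accompanied by a 5.04-fold rise of its modifier subunit Gclm, from 53.8, 51.4 and 54.3 CPM to 259, 274 and 272 CPM. Gss, the synthetase of the second step, rose by 1.42 and the glutathione reductase Gsr by 1.71. Members outside the naming rule, such as Gss and Gsr, are named here and below to spell out small counts, and were picked after their values were seen.

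Uptake of the precursors moved unevenly. Slc7a11, the light chain of the cystine/glutamate exchanger, rose from 6.19, 4.88 and 4.82 CPM to 32.3, 34.0 and 32.5 CPM (6.22-fold), and Slc6a9, a glycine transporter, from 7.26, 6.57 and 9.10 CPM to 36.1, 41.4 and 36.0 CPM (4.95-fold). The heavy chain Slc3a2, which serves several amino acid transporters, was at 102 CPM in each control library and at 97.4, 101 and 96.7 CPM after siKEAP1 (-0.052, adjusted p = 0.553). The 2 transsulfuration enzymes Cbs (-0.17) and Cth (0.20) did not pass. The 1 member that fell was Chac1, which degrades glutathione (-0.61), and its call was lost without siCONTROL replicate 1 (adjusted p = 0.167) or any of the 3 siKEAP1 libraries (0.0681 to 0.106), and with a replicate block (0.0512).

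Enzymes that regenerate NADPH, the reductant that glutathione and thioredoxin reductases use, rose in the pentose phosphate pathway and in the cytosol. Over 21 measured genes 12 rose and 3 fell, with a median of 0.30. G6pdx, glucose-6-phosphate dehydrogenase, rose 3.76-fold from 113, 119 and 112 CPM to 431, 439 and 423 CPM (log2 fold change 1.91 ± 0.059, adjusted p = 2.32e-10), and Tkt, transketolase of the non-oxidative branch, 3.18-fold from 96.4, 80.8 and 74.7 CPM to 279, 270 and 253 CPM. The second dehydrogenase of the pathway, Pgd, rose less, from 213, 185 and 179 CPM to 275, 251 and 253 CPM (0.43). Idh1, the cytosolic isocitrate dehydrogenase, rose by 1.20, the malic enzyme Me1 by 0.97 and the NAD kinase Nadk by 0.86. Aldh1l1, a cytosolic folate enzyme that yields NADPH, rose 9.54-fold from a low level, 0.538, 1.14 and 0.433 CPM, to 6.64, 7.05 and 6.45 CPM. The 3 members that fell encode mitochondrial enzymes, namely Idh2 (-0.52), Mthfd2 (-0.74) and Nadk2 (-0.59).

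In the thioredoxin system 8 of 20 measured genes rose and 3 fell, with a median of 0.17. Only the share of rises was larger than over all genes tested, where 20.4% rose and 20.2% fell. Txnrd1, the cytosolic thioredoxin reductase, was at 225, 236 and 224 CPM in control cells and 694, 733 and 710 CPM in siKEAP1 cells (log2 fold change 1.64 ± 0.073, adjusted p = 3.88e-09). Its substrate Txn1 rose from 449, 326 and 298 CPM to 665, 667 and 648 CPM (0.88). Peroxiredoxins, which reduce hydrogen peroxide, differed from one another: Prdx6 rose from 140, 126 and 129 CPM to 358, 376 and 367 CPM (1.48) and Prdx1 from 594, 464 and 447 CPM to 975, 1025 and 949 CPM (0.97), whereas Prdx2 was at 1079, 812 and 793 CPM and then at 867, 840 and 849 CPM, and did not pass. Sesn2, a stress-responsive sestrin, rose by 1.01. Txnip, which binds and inhibits thioredoxin, fell from 59.0, 66.1 and 74.4 CPM to 29.2, 26.5 and 28.5 CPM (-1.25, adjusted p = 9.75e-08).

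Enzymes that remove superoxide and peroxide rose by smaller steps, 7 of 9 measured, with 1 lower and a median of 0.49. Cat, catalase, was the one that rose by more than 2-fold, from 65.0, 72.6 and 74.2 CPM to 210, 209 and 204 CPM (1.56 ± 0.068, adjusted p = 3.3e-09). Sod1, the cytosolic superoxide dismutase, rose by 0.89, the secreted Sod3 by 0.58 and the peroxidase Gpx1 by 0.57. Gpx4, which reduces lipid peroxides, rose by 0.36 at adjusted p = 0.0387, and 4 of the 6 ways of leaving out a library ended that call (0.154 without siCONTROL replicate 2). The secreted Gpx3 fell from 94.0, 99.1 and 99.4 CPM to 50, 48.6 and 57.1 CPM (-0.91).

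Over 26 measured genes of iron and heme handling 13 rose and 3 fell. Of the 15 heme genes 9 rose and none fell, and of the 11 iron genes 4 rose and 3 fell, with a median of 0.041. Slc48a1, a heme transporter of endolysosomes, was at 102, 102 and 100 CPM in siCONTROL and at 580, 601 and 568 CPM in siKEAP1, with a log2 fold change of 2.53 ± 0.059 and an adjusted p of 2.19e-11. Heme oxygenase, Hmox1, rose from 45.1, 41.9 and 44.4 CPM to 124, 142 and 127 CPM (1.58), and the biliverdin reductase Blvrb, which acts downstream of it, from 30.3, 24.8 and 22.3 CPM to 139, 140 and 133 CPM (2.41). Ferroportin, the iron exporter Slc40a1, rose 3.99-fold from 5.96, 6.46 and 6.60 CPM to 26.1, 24.5 and 25.3 CPM. The 2 ferritin subunits differed: the light chain Ftl1 rose from 762, 663 and 673 CPM to 2095, 2149 and 2031 CPM (1.58), while the heavy chain Fth1 was at 1667, 1395 and 1410 CPM and then 1708, 1617 and 1536 CPM (0.12, adjusted p = 0.284, and 0.20 with adjusted p = 0.0434 without siCONTROL replicate 1). Among the 3 members that fell were the transferrin receptor Tfrc (-0.59) and the zinc and iron importer Slc39a14 (-0.34). The third was Aco1 (-0.47), the iron regulatory protein of the cytosol.

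Glutathione S-transferases, which couple glutathione to electrophiles, had the highest median of the 32 lists, 1.80. Of 22 measured members 18 rose, none fell, and 15 rose by more than 2-fold. Gsta3 had no read in any siCONTROL library and 27.5, 28.1 and 21.6 CPM in siKEAP1, at least 175-fold higher against a floor of 3 counts per library. Gsta1 went from 0.538, 3.69 and 1.44 CPM to 30.6, 33.1 and 24.3 CPM (15.5-fold, and a log2 fold change of 4.89 in place of 4.0 without siCONTROL replicate 2). These and other alpha and mu class genes are close paralogs, and how reads shared between them were counted is not given in the sources used here, so the split among them is uncertain. Gsta4 rose from 71.6, 72.8 and 72.0 CPM to 624, 598 and 550 CPM (8.19-fold) and Gstm1 from 176, 186 and 175 CPM to 741, 741 and 662 CPM (3.99-fold). The microsomal Mgst1 rose 21.5-fold, from 3.45, 5.75 and 4.05 CPM to 96.6, 104 and 84.4 CPM (4.44 ± 0.17, adjusted p = 8.68e-10), and Mgst2 (3.11), Mgst3 (1.14) and the mitochondrial Gstk1 (1.22) rose as well. Gstp1, the pi class enzyme, was at 181, 144 and 120 CPM and then 166, 202 and 158 CPM, with overlapping libraries. Its log2 fold change of 0.24 did not pass (adjusted p = 0.22), but reached 0.40 with adjusted p = 0.0284 without siCONTROL replicate 1.

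Among 34 other measured detoxification enzymes 26 rose, 17 of them by more than 2-fold, and 1 fell. The aldehyde dehydrogenase Aldh3a1 rose 20-fold from 43.1, 68.5 and 66.9 CPM to 1238, 1222 and 1107 CPM (4.32 ± 0.16, adjusted p = 5.68e-10). Aldehyde oxidase, Aox1, rose 6.01-fold from 15.3, 17.3 and 18.5 CPM to 103, 101 and 103 CPM, and the mitochondrial Aldh2 from 432, 418 and 431 CPM to 756, 747 and 739 CPM (0.81). Akr1a1, an aldehyde reductase, was at 675, 561 and 546 CPM in control cells and at 554, 543 and 528 CPM after siKEAP1 (-0.13), and did not pass. Cyp1a1, a cytochrome P450 of xenobiotic metabolism, rose 47.0-fold from 0.359, 1.25 and 1.59 CPM to 48.6, 52.1 and 49.4 CPM. Cyp1b1 moved the other way, from 183, 239 and 234 CPM to 95.3, 105 and 98.0 CPM (-1.14, adjusted p = 2.21e-06), and was the 1 member that fell.

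These P450 genes are also targets of the aryl hydrocarbon receptor, a ligand-activated factor that senses planar aromatic compounds. Ahr itself rose 3.82-fold from 14.1, 23.8 and 23.2 CPM to 68.8, 80.3 and 84.4 CPM (1.94 ± 0.17, adjusted p = 1.21e-06). Its dimer partner Arnt fell by 0.52. Of the 9 measured genes of this list 5 rose and 3 fell, and the list shares Cyp1a1, Cyp1b1, Aldh3a1 and the quinone reductase Nqo1 with the detoxification list.

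Efflux transporters, which carry glutathione conjugates and other organic anions out of the cell, rose in 6 of 7 measured cases with none lower. Abcc3 rose 24.2-fold, from 1.08, 1.25 and 0.674 CPM to 24.2, 25.5 and 23.0 CPM, and Abcc4 4.17-fold from 35.1, 51.4 and 49.4 CPM to 182, 198 and 187 CPM. Abcb1b, a drug exporter of the P-glycoprotein family, rose by 1.08, Abcc5 by 0.91 and Abcc1 by 0.45. Abcg2 was the member that did not pass (-0.13). In the metallothionein and zinc list 5 of 6 measured genes rose and none by more than 2-fold. The zinc transporter Slc30a4 rose by 0.95, Slc30a1 by 0.58, Slc39a10 by 0.50 and the zinc-sensing factor Mtf1 by 0.36. The metallothionein Mt1 rose from 343, 226 and 222 CPM to 359, 379 and 348 CPM (0.46, adjusted p = 0.0218), a call lost without siCONTROL replicate 2 (adjusted p = 0.095), siCONTROL replicate 3 (0.0893) or siKEAP1 replicate 2 (0.071), and for Slc39a10 the adjusted p was 0.0532 without siKEAP1 replicate 1.

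**Figure D2:**
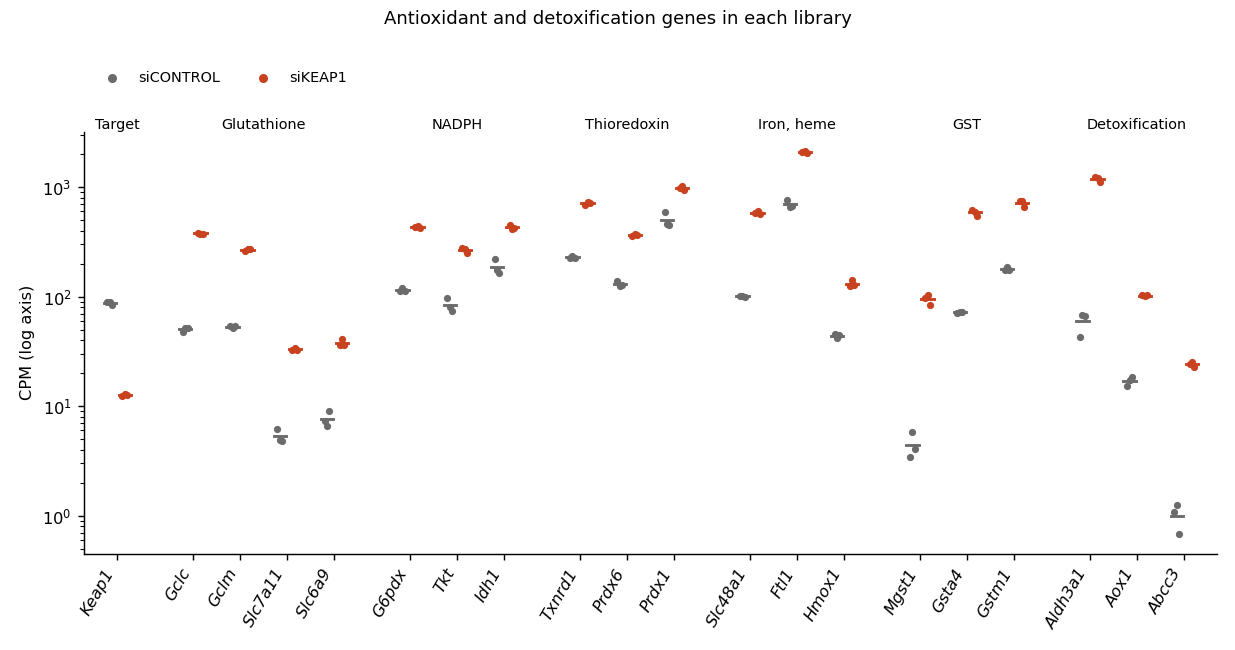
Points are the CPM of Keap1 and of antioxidant and detoxification genes in each siCONTROL (grey) and siKEAP1 (red) library on a log axis, and bars are the means of 3 libraries. Keap1 fell to 12.3 to 12.8 CPM, and for every other gene drawn the 3 siKEAP1 points lie above the 3 siCONTROL points.

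To see what the raised genes share in sequence, promoter windows of 250 bases before to 50 bases after RefSeq gene starts (GRCm38.p6) were searched on both strands for the core of the antioxidant response element, TGACNNNGC. Of 10546 tested genes with a window, 1771 (16.8%, 95% Wilson interval 16.1 to 17.5%) held it. The share was 16.1% (13.7 to 18.8%) among 802 genes higher by more than 2-fold and 13.5% (10.5 to 17.3%) among 392 lower ones, both near the share of all promoters. Of the 94 members of the 7 antioxidant and detoxification lists that rose, 78 had a window and 18 of these held the core, 23.1% (15.1 to 33.6%). That interval contains the share of all promoters, and the intervals cover counting error only. The core overlapped TGACTCA, the element of AP-1, in 13 of the higher genes, none of the lower ones and 59 of all genes with a window. A match of letters is a description and does not show that a factor binds there, and elements outside the window were not searched. The stretches below were chosen because they hold the core upstream of genes whose levels are described above, and are printed 5′ to 3′ on the strand that carries the core, in capitals, with 25 bases on each side.
Gsta3 (chr1:21240439-21240497, plus strand): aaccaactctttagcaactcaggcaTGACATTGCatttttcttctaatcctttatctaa
Mgst1 (chr6:138140446-138140504, minus strand): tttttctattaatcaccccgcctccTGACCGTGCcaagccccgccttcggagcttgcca
Gclm (chr3:122245398-122245456, minus strand): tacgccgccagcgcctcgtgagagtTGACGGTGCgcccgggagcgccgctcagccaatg
G6pdx (chrX:74428904-74428962, plus strand): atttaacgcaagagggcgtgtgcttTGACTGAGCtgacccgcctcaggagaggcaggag
Txnrd1 (chr10:82859089-82859147, minus strand): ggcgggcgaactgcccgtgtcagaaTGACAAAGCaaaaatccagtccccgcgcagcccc
Prdx1 (chr4:116685441-116685499, minus strand): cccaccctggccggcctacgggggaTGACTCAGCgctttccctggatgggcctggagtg
Mafg (chr11:120633736-120633794, plus strand): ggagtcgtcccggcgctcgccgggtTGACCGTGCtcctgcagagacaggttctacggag
The core lay 112 bases before the start of Gsta3, 125 before Gclm, 124 before Prdx1 and 213 before Mafg. In Prdx1 it reads as a single AP-1 element followed by the 2 bases that complete the antioxidant core. In Txnrd1, G6pdx and Mgst1 it lay within 83 bases of the start.

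Other lists linked to protein quality had small medians. Over all genes tested 20.4% rose and 20.2% fell. Of 16 autophagy receptors and ATG8 proteins 7 rose and 2 fell, a larger share higher and a smaller share lower, around a median of 0.072. Gabarapl1, an ATG8 protein, rose from 67.5, 61.7 and 63.6 CPM to 120, 121 and 115 CPM (0.89), the receptor Optn by 0.61 and Tax1bp1 by 0.22, while Map1lc3a fell by 0.63. Tax1bp1 did not pass with the gene length trend removed (0.13, adjusted p = 0.137). Proteasome subunits had a median of 0.073, with 5 of 33 higher and 4 lower, both below the shares over all genes tested, and none past 2-fold. Psmd11 (0.55), Psma5 (0.49), Psma7 (0.49) and Psmd2 (0.35) rose, and Psmd3 (-0.47) and Psmc3 (-0.30) fell. Without siCONTROL replicate 1 the proteasome count became 16 higher and 3 lower with a median of 0.21, and Psmc3 no longer passed (adjusted p = 0.0609). Of 22 chaperones 10 rose, a larger share than over all genes tested, and 2 fell, with a median of 0.18. Hspb8, a small heat shock protein, rose from 75.3, 75.2 and 70.5 CPM to 139, 144 and 141 CPM (0.94), Hsph1 by 0.74 and the abundant Hsp90ab1 by 0.40.

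Atf4, which encodes the factor of the integrated stress response, fell, and the genes listed with it moved both ways. Of 20 measured genes 3 rose and 7 fell, with a median of -0.11, where 20.4% of all genes tested rose and 20.2% fell. Without siCONTROL replicate 1 the counts were 6 and 7, so the count of rises depends on that library. Atf4 fell from 293, 230 and 221 CPM to 164, 158 and 160 CPM (-0.63, adjusted p = 0.000158), and the alanyl-tRNA synthetase Aars from 152, 150 and 140 CPM to 113, 120 and 115 CPM (-0.35). The 3 that rose were Slc7a11 and Sesn2, both also in lists above, and Cebpb, which went from 121, 81.4 and 77.8 CPM to 167, 153 and 139 CPM (0.71). Over 29 sterol and fatty acid synthesis genes 2 rose and 15 fell, with a median of -0.31. The desaturase Scd2 fell from 2114, 1732 and 1600 CPM to 1102, 877 and 886 CPM (-0.93) and Insig1, a feedback sensor of sterols, by 0.75. The factor Srebf2, which drives the sterol genes, fell by 0.31.

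Genes of muscle identity and differentiation fell together. In the list of myogenic factors and fusion genes 15 of 19 measured fell and 1 rose, with a median of -0.76. Myod1, the determination factor, was at 253, 222 and 206 CPM in siCONTROL and 68.7, 67.1 and 69.9 CPM in siKEAP1 (-1.73 ± 0.086, adjusted p = 8.02e-09), and Myf5, its relative, fell from 95.6, 83.8 and 79.6 CPM to 38.9, 42.0 and 44.1 CPM (-1.05). Myog, myogenin, which marks entry into differentiation, was at 74.6, 32.0 and 29.3 CPM and then at 0.232, 0.162 and 0.132 CPM (-7.99). The E protein Tcf12 was at 255, 304 and 302 CPM and then at 245, 226 and 241 CPM (-0.27, adjusted p = 0.058, and -0.36 with adjusted p = 0.0139 without siCONTROL replicate 1). Mef2d was the 1 member that rose (0.51).

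All 8 measured genes listed under fusion and adhesion fell. Mymk, myomaker, which drives myoblast fusion, went from 17.6, 7.0 and 7.08 CPM to 0.418, 0.486 and 0.439 CPM (-4.55). Cdh15, the M-cadherin of myoblasts, fell from 185, 143 and 127 CPM to 52.0, 44.1 and 42.6 CPM (-1.71), Ncam1 by 0.76, Cdon, a co-receptor of cadherins, by 0.55 and the laminin receptor Itga7 by 0.41. Jsrp1, which was listed with them but encodes a protein of the junctional sarcoplasmic reticulum, fell by 2.06.

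Of 37 measured genes of the sarcomere and of excitation-contraction coupling 30 fell, 25 of them by more than 2-fold, and 1 rose, with a median of -1.85 (29 lower and -1.51 without siCONTROL replicate 1). In growing myoblasts these genes are low, and siCONTROL replicate 1 had the highest level of the controls for Myog, Mymk, Actc1, Acta1 and Tnnt1. The cardiac actin Actc1 was at 22.1, 8.46 and 8.33 CPM in siCONTROL and at or below 3 counts in every siKEAP1 library, at least 99.0-fold lower. Skeletal actin, Acta1, fell from 15.4, 7.60 and 9.29 CPM to 0.929, 1.66 and 1.10 CPM (-3.12), and the slow troponin T Tnnt1 from 40.3, 20.2 and 22.8 CPM to 2.42, 1.42 and 2.15 CPM (-3.81). Atp2a1, the calcium pump of fast muscle, fell from 13.4, 9.93 and 11.8 CPM to 0.743, 0.608 and 1.49 CPM (-3.63), and titin, Ttn, from 6.59, 9.28 and 9.63 CPM to 1.16, 1.17 and 1.14 CPM (-2.87). Des, the muscle intermediate filament that proliferating myoblasts already make, fell less, from 686, 578 and 577 CPM to 432, 403 and 423 CPM (-0.55). The member that rose was Tnnt2, the cardiac troponin T, by 1.30. The calcium pump Atp2a2, which most cells use, was at 270, 342 and 340 CPM and then at 318, 332 and 330 CPM and did not pass.

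At the neuromuscular synapse 4 of 10 measured genes fell and none rose. The fetal receptor subunit Chrng fell from 27.4, 15.1 and 16.2 CPM to 3.95, 2.19 and 2.50 CPM (-2.78), Chrna1, the alpha subunit, from 333, 244 and 234 CPM to 122, 108 and 120 CPM (-1.21), the receptor-clustering Rapsn by 1.15 and the agrin receptor Lrp4 by 0.83. Agrn, agrin itself, was at 78.4, 125 and 122 CPM and then at 126, 171 and 146 CPM (0.45), just short of the threshold (adjusted p = 0.0511), and passed with a replicate block (0.0127) or without siKEAP1 replicate 1 (0.0385), siCONTROL replicate 2 (0.0386) or siCONTROL replicate 3 (0.0434). Of 13 splicing and RNA-binding regulators 6 fell and 3 rose, the latter near the 20.4% of all genes tested. Rbm24, which stabilises muscle transcripts, fell from 29.3, 15.5 and 16.9 CPM to 0.186, 0.648 and 0.175 CPM (-5.88, and -6.80 without siKEAP1 replicate 2). Qk, quaking, fell from 372, 425 and 423 CPM to 245, 239 and 242 CPM (-0.75), and Rbfox2 and Celf2 fell by 0.49 and 0.54, while Rbm38 rose by 0.85.

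Among Notch, ID and BMP genes, which restrain differentiation in myoblasts, 7 of 20 measured fell and 1 rose. The Notch targets Heyl (-3.12), Hes1 (-1.10) and Hey1 (-1.02) fell, and Bmp4 fell from 55.0, 70.5 and 67.5 CPM to 16.1, 17.1 and 18.5 CPM (-1.90). Id3, an inhibitor of myogenic factors, fell by 0.46.

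Growth factor genes of the IGF axis and the imprinted network fell in 7 of 14 measured cases and rose in 3, with a median of -0.57. The share of rises was near the 20.4% over all genes tested. Igf1 fell from 46.2, 55.9 and 51.9 CPM to 4.64, 2.39 and 3.73 CPM (-3.85 ± 0.20, adjusted p = 1.3e-08). The long noncoding RNA H19 fell from 2579, 2191 and 2063 CPM to 104, 72.1 and 88.3 CPM (25.8-fold), and Igfbp5, an IGF-binding protein of differentiating myoblasts, from 2188, 2435 and 2405 CPM to 452, 322 and 366 CPM (6.16-fold). Cdkn1c, an imprinted CDK inhibitor, fell 3.04-fold from 16, 9.01 and 9.01 CPM to 4.27, 3.73 and 3.20 CPM. The members that rose were Igfbp6, from 206, 189 and 194 CPM to 448, 404 and 426 CPM (1.12), Irs2 (1.05) and Igfbp4 (0.47).

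**Figure D3:**
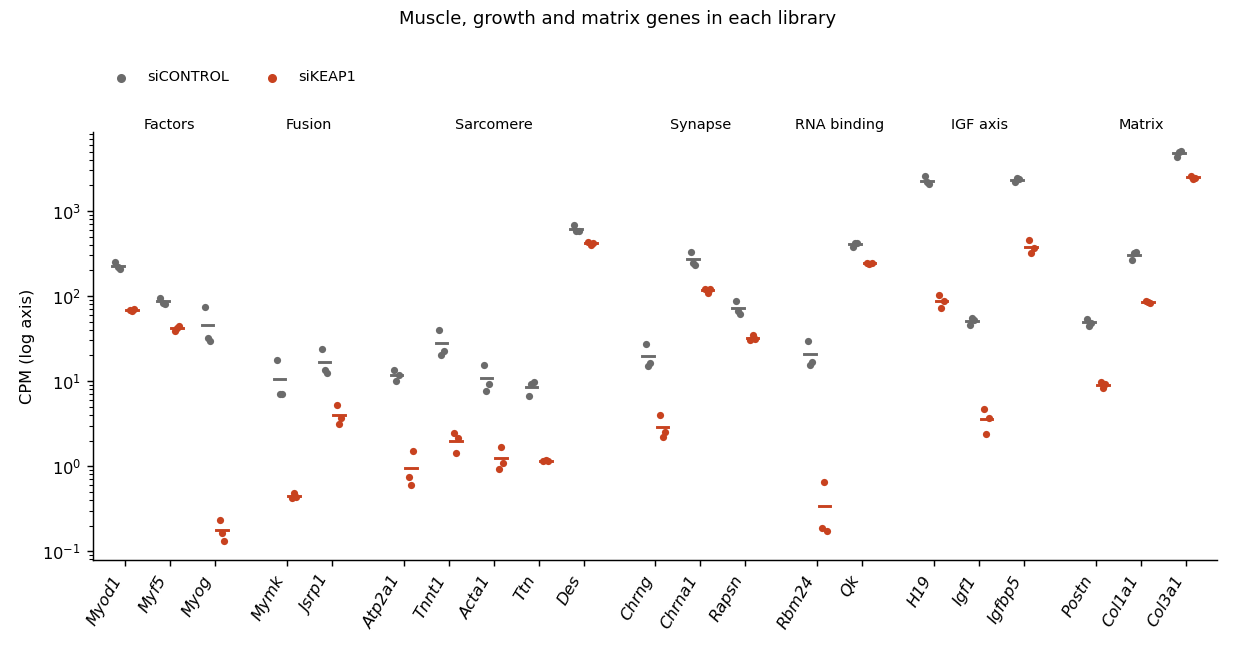
Points are the CPM of muscle, growth and matrix genes in each siCONTROL (grey) and siKEAP1 (red) library on a log axis, and bars are the means of 3 libraries. For every gene drawn the siKEAP1 points lie below the siCONTROL points, from Des, at 403 to 432 CPM against 577 to 686 CPM, to Myog, at 0.132 to 0.232 CPM against 29.3 to 74.6 CPM.

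Cell cycle genes were lower and several p53 targets higher. All but 3 of 29 mitosis genes fell, 26 in all, none by more than 2-fold, with a median of -0.45. Top2a, topoisomerase II of dividing cells, fell from 571, 682 and 681 CPM to 364, 382 and 376 CPM (-0.79), the centromeric histone Cenpa from 148, 137 and 131 CPM to 83.7, 83.1 and 81.3 CPM (-0.75), Birc5 by 0.72 and the kinetochore gene Ndc80 by 0.70. Of 38 DNA replication genes 23 fell and 1 rose, with a median of -0.29. Ccne1, cyclin E, fell from 45.8, 41.3 and 40.3 CPM to 17.0, 17.5 and 16.5 CPM (-1.32), its kinase Cdk2 by 0.80 and the replication factor Mcm10 by 1.06. The 1 that rose was Ccnd1, cyclin D1, from 188, 238 and 243 CPM to 418, 468 and 476 CPM (1.02, adjusted p = 2.42e-06). The share of cells in each phase was not measured, and fewer cells in a phase and less RNA per cell cannot be told apart.

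Of 16 measured p53 targets 12 rose and 1 fell. Mdm2, the ligase of p53, rose from 77.3, 76.4 and 81.6 CPM to 149, 184 and 182 CPM (1.13), Trp53inp1 from 49.4, 61.0 and 65.9 CPM to 179, 198 and 203 CPM (1.72), Eda2r by 1.15 and Ccng1 by 0.57. The CDK inhibitor Cdkn1a, p21, rose from 243, 204 and 202 CPM to 397, 410 and 409 CPM (0.91 ± 0.080, adjusted p = 1.4e-06). It was the 1 of 5 measured CDK inhibitors that rose, and Cdkn1b (-0.21), Cdkn1c (-1.61), Cdkn2c (-0.62) and Cdkn2d (-0.77) fell. The call of Cdkn1b was lost without siCONTROL replicate 3 (adjusted p = 0.0652), siKEAP1 replicate 2 (0.0882) or siKEAP1 replicate 3 (0.0894).

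Cytokine and acute-phase genes rose in 14 of 20 measured cases, 9 by more than 2-fold, and fell in 2. Lcn2, lipocalin 2, rose 9.25-fold from 0.448, 0.597 and 0.867 CPM to 3.81, 6.72 and 7.15 CPM, and the complement component C3 from 10.4, 21.9 and 23.1 CPM to 58.3, 72.5 and 72.5 CPM (1.88). Ptgs2, cyclooxygenase 2, rose from 36.4, 45.7 and 51.9 CPM to 137, 183 and 163 CPM (1.85), Il6 by 1.95, the chemokines Cxcl1 and Cxcl5 by 1.06 and 0.85, and Csf1 by 0.40. Of 28 interferon response genes 13 rose and none fell. Their levels varied widely within the groups: Oas2 was at 0.0448, 3.04 and 2.75 CPM in siCONTROL and 3.02, 14.3 and 9.87 CPM in siKEAP1, with overlapping libraries. Its adjusted p of 0.0235 became 0.11 without siKEAP1 replicate 2, and that of Rsad2 went from 0.00953 to 0.0501 and that of B2m from 0.0082 to 0.0513 without the same library. Without siCONTROL replicate 1, which was lowest for these genes, 12 rose and the median moved from 0.85 to 0.48. Mx1, at 0.224, 1.57 and 1.35 CPM and then at 2.46, 5.63 and 4.65 CPM, rose by 2.05 (adjusted p = 0.00448).

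Collagen and matrix genes mostly fell, 22 of 39 measured with 9 higher and a median of -0.64. The share higher was near the 20.4% over all genes tested. Col1a1 fell from 265, 318 and 329 CPM to 86.7, 85.3 and 82.8 CPM (-1.84), Col3a1 from 4360, 4979 and 5056 CPM to 2569, 2408 and 2467 CPM (-0.95) and periostin, Postn, from 54.4, 44.5 and 48.4 CPM to 9.80, 8.34 and 9.12 CPM (-2.44). The aggrecanase Adamts5 fell by 2.73, Thbs1 by 1.77 and Sparc by 0.85. Fibronectin, Fn1, was at 1526, 2813 and 2976 CPM and then at 1816, 1779 and 1855 CPM. Its log2 fold change of -0.42 did not pass (adjusted p = 0.0939), but was -0.68 with adjusted p = 0.000113 without siCONTROL replicate 1. The 5 members that rose by more than 2-fold were Col7a1 (1.54), Col18a1 (1.24), and the proteases Mmp9 (1.75), Mmp13 (3.14, and 4.07 without siCONTROL replicate 3) and Mmp10. Mmp10 was at or below 3 counts in every control library and was at least 14.3-fold higher.

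Fosl1 and Fosl2, the FOS-related subunits of AP-1, rose, from 33.8, 30.8 and 34.0 CPM to 94.9, 118 and 110 CPM (1.71) and from 91.0, 122 and 124 CPM to 201, 198 and 209 CPM (0.85). The immediate early factors Egr1 and Egr2 fell by 1.02 and 1.52, and Junb (-0.076) did not pass, so that of 14 members 5 rose and 4 fell. Genes of the cornified and desmosomal envelope rose in 6 of 10 measured cases and fell in none. Periplakin, Ppl, rose 46.3-fold from 0.807, 0.977 and 0.915 CPM to 43.5, 41.2 and 40.2 CPM (5.53 ± 0.22, adjusted p = 1.46e-09) and the keratin Krt19 8.58-fold from 6.01, 4.61 and 5.39 CPM to 50.6, 43.5 and 43.3 CPM. Pkp2 rose by 0.39 and Pkp1 by 0.27, the latter with adjusted p = 0.0602 without siKEAP1 replicate 1. The epithelial markers Epcam and Alb stayed at or below 3 counts, and the summed epithelial markers, most of it Krt14, went from 10.6 to 16.9 CPM up to 41.5 to 46.5 CPM. The part of other cells in these rises was not tested.

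Of 24 nuclear genes of oxidative phosphorylation none rose and 6 fell at adjusted p under 0.05, where 20.2% of all genes tested fell, but 3 rose and 5 fell without siCONTROL replicate 1, and the median moved from -0.22 to -0.087. Sdhb, a subunit of complex II, fell most, from 118, 89.7 and 87.8 CPM to 58.2, 53.1 and 52.0 CPM (-0.86), followed by Uqcrfs1 (-0.54) and Atp5a1 (-0.53). In the glycolysis and hypoxia list 5 of 22 rose, near the 20.4% of all genes tested, and 7 fell. The glucose transporter Slc2a1 fell from 132, 119 and 129 CPM to 61.9, 57.5 and 57.8 CPM (-1.10), the lactate exporter Slc16a3 from 99.3, 87.5 and 85.8 CPM to 38.2, 36.4 and 39.0 CPM (-1.26), Ldha by 0.58 and Pdk1 by 0.81, while Pkm rose by 0.34. Gapdh was counted at 14, 10.6 and 19.1 CPM in siCONTROL and at 168, 11.1 and 203 CPM in siKEAP1. These values overlap and siKEAP1 replicate 2 lay with the controls. Gapdh has many pseudogene copies and how reads shared with them were counted is not given, so its level is uncertain. Its call (adjusted p = 0.0175) was lost without siKEAP1 replicate 3 (0.0627) or siCONTROL replicate 2 (0.0606).

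Outside the lists, the largest rises were of genes almost silent in control myoblasts. That control level is also a term of the fold change that ranked them. Selp, P-selectin, rose from 0.583, 0.977 and 0.963 CPM to 17.9, 26.2 and 26.1 CPM (27.8-fold). Ptges, the inducible prostaglandin E synthase, rose from 0.179, 0.326 and 1.06 CPM to 13.4, 17.0 and 17.9 CPM (4.94, and 6.0 without siCONTROL replicate 3), beside the rise of Ptgs2, which acts one step before it. The neuronal adhesion gene Nrxn2 rose 75.3-fold to 11.4, 11.3 and 9.12 CPM from 0 to 0.326 CPM (6.29, and 7.68 without siCONTROL replicate 2). The lipase gene Lipn (43.2-fold) and the kinase gene Prkcb (27.4-fold) rose as well. Gm20658 went from at most 0.193 CPM to 17.4, 25.9 and 24.6 CPM (7.79, and 8.71 without siCONTROL replicate 3). It lies within Vipr2 on the other strand, and whether the counting used strand is not given, so reads of the pair cannot be told apart.

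Several of the largest falls were of genes outside the lists. C1qtnf3, a secreted protein of the C1q and TNF-related family, fell from 344, 250 and 230 CPM to 12.8, 7.66 and 10.4 CPM (26.7-fold, log2 fold change -4.74 ± 0.19, adjusted p = 1.13e-09). The proteoglycan Fmod, fibromodulin, fell 17.9-fold from 47.7, 43.0 and 42.7 CPM to 2.51, 2.27 and 2.68 CPM, and Fndc1 15.4-fold from 104, 143 and 150 CPM to 9.89, 6.36 and 9.56 CPM. Pdlim3, a Z-disc protein, fell 22.4-fold and Islr2, a membrane protein with leucine-rich repeats, 23.6-fold (-4.55, and -5.45 without siKEAP1 replicate 1). Among transcription factor genes, 36 of 962 tested rose and 36 fell by more than 2-fold, fewer rises than the 7.59% and about as many falls as the 3.88% over all genes tested.

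**Figure D4:**
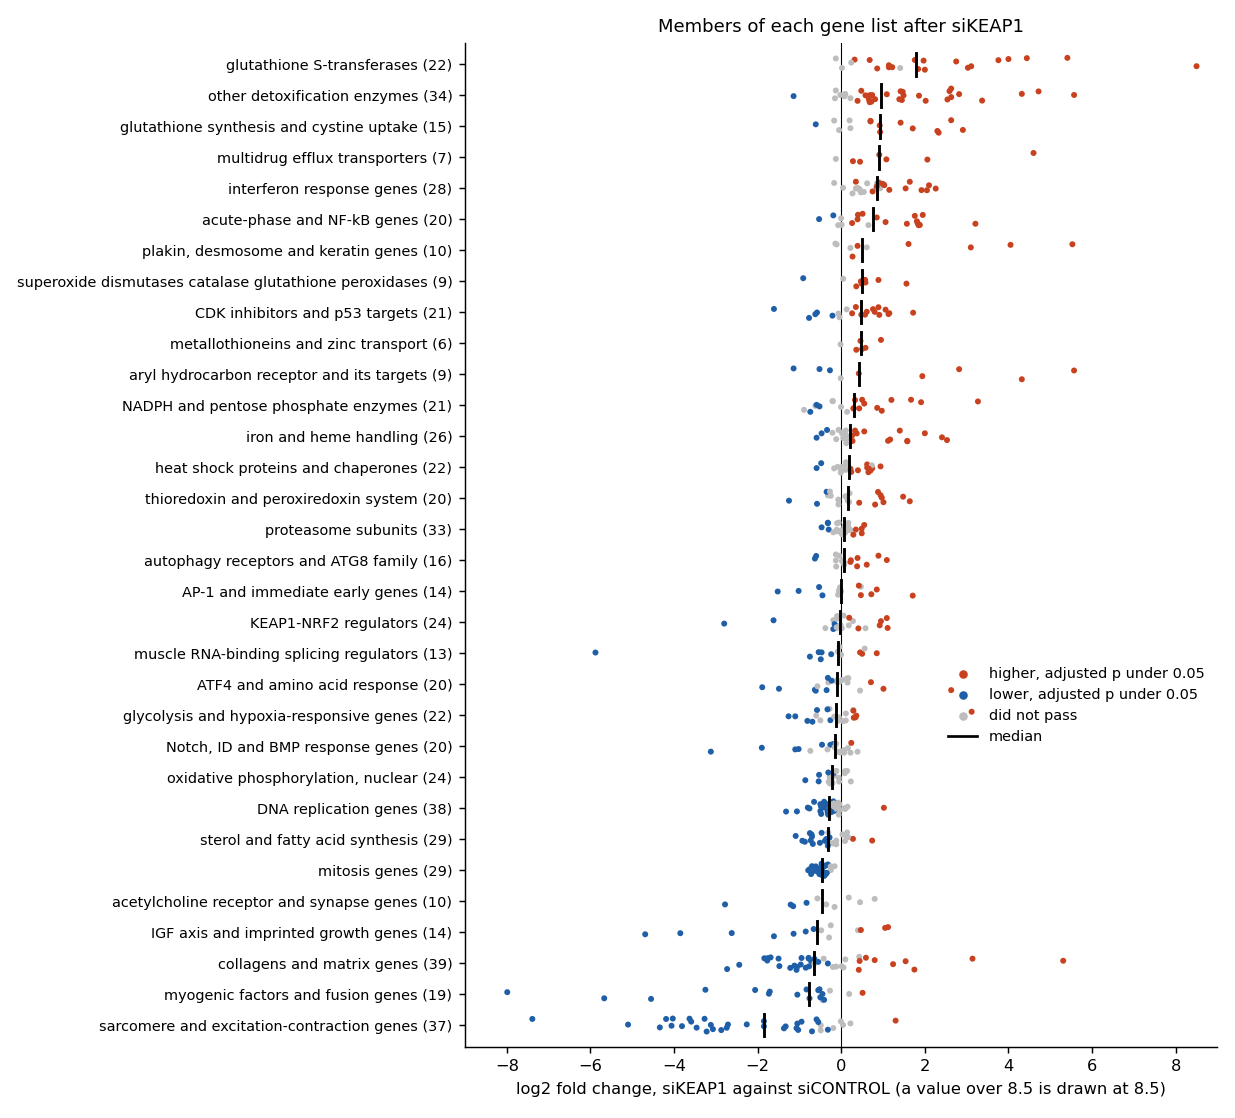
Each point is the log2 fold change of 1 gene between siKEAP1 and siCONTROL, in rows by gene list with the number tested, and the black bar is the median. Glutathione S-transferases have the highest median (1.80) and sarcomere genes the lowest (-1.85), and the rows between them run through lists whose medians lie near 0, such as the KEAP1-NRF2 regulators (-0.021).

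The same siRNA was also given to cells depleted of CCNF, the F-box protein cyclin F. The difference between siKEAP1/siCCNF and siCCNF compares the means of libraries other than the 6 above. Its test is not separate from those 6, as the spread was estimated over all 12 libraries. In CCNF-depleted cells Keap1 was less depleted, at 22.2, 27.0 and 23.1 CPM against 86.5, 88.6 and 80.3 CPM in siCCNF (log2 fold change -1.82), and the difference between the 2 depletions was itself past the threshold (interaction 0.98, adjusted p = 6.99e-05). The part of this weaker depletion in the differences below was not tested, nor was that of differing starting levels between siCONTROL and siCCNF. In CCNF-depleted cells 454 genes (3.00%) rose and 331 (2.19%) fell at adjusted p under 0.05, and the effect of siKEAP1 differed between the 2 backgrounds for 3181 genes (21.0%). The sum of these rises and falls, 785, depends on the libraries and the tool. It was 363, 484 and 367 without siCCNF replicates 1, 2 and 3, 402 without siKEAP1/siCCNF replicate 2, 651 without the siKEAP1/siCCNF replicate 3 that stood apart, 1404 without siCONTROL replicate 1 and 1257 with DESeq2, while the interaction count lay between 2429 and 3596 over the same alternatives. Where a gene or list is said not to pass in CCNF-depleted cells, that describes this fit and does not show that it did not change.

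Most genes kept their direction but moved less. Of the 1148 genes that rose by more than 2-fold in siKEAP1, 911 (79.4%) were also higher in siKEAP1/siCCNF than in siCCNF, 203 (17.7%) passed the test there in the same direction (120 to 269 over the alternatives), and 3 (Mgll, Nov and Adcy8) passed in the opposite one, all 3 not without siCCNF replicate 1 or siKEAP1/siCCNF replicate 2 (highest adjusted p of 0.0915, 0.0627 and 0.131 over the alternatives). Their median log2 fold change was 1.78 in the presence of CCNF and 0.36 without it. Of the 587 genes that fell, 489 (83.3%) were lower there too, 124 (21.1%) passed (81 to 178 over the alternatives) and none passed the other way (0 to 2), with medians of -1.50 and -0.36. Over all genes tested the sign was shared by 61.1%. The interaction passed for 724 (63.1%) of the higher and 397 (67.6%) of the lower genes. These genes were chosen by their change between siKEAP1 and siCONTROL, which is also a term of the interaction, so that the choice itself favours a smaller effect in the other background and these shares and medians are a description only.

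The antioxidant genes differed in how much of their rise was seen without CCNF. Many genes named here, and in the paragraphs on muscle and cell cycle genes below, were chosen for a large change between siKEAP1 and siCONTROL. That change is also a term of the interaction, so the choice favours a smaller effect without CCNF and their values are a description only. Gstm1 rose by 2.00 with CCNF and 1.47 without it, and Gsta4 by 3.03 and 2.01, and over the glutathione S-transferases 12 of 22 rose, with a median of 0.95. Gclc rose by 1.31 in place of 2.91 (interaction -1.60, adjusted p = 5.2e-06) and Slc48a1 by 1.10 in place of 2.53 (interaction -1.42, adjusted p = 3.24e-07). Abcc3, by contrast, had a log2 fold change of 0.46 (adjusted p = 0.125) where it had risen by 4.60, Cyp1a1 of 0.60 in place of 5.57, Ahr of 0.26 in place of 1.94 and Slc6a9 of 0.14 in place of 2.30, and the interaction passed for each of the 4. No efflux transporter passed in CCNF-depleted cells, and 1 did without siCONTROL replicate 1. As 3.00% of all genes tested rose and 2.19% fell there, none of 7 is near the share of all genes. Pgd rose by 0.88, more than the 0.43 seen with CCNF (interaction 0.44, adjusted p = 0.00879).

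Muscle genes fell less or not detectably in CCNF-depleted cells. Myod1 was at -1.73 with CCNF and 0.078 without it (interaction 1.81, adjusted p = 1.26e-06), H19 at -4.69 and -0.43 (interaction 4.27, adjusted p = 1.3e-07) and Igfbp5 at -2.62 and -0.22 (interaction 2.40). Myog still fell by 2.21 and Igf1 by 0.92, the latter not without siCCNF replicate 1 or siKEAP1/siCCNF replicate 2 (highest adjusted p = 0.0541). Of the 37 sarcomere genes 7 fell (3 to 11 over the alternatives), with a median of -0.54, and the interaction was positive and past the threshold for 15. Of 39 collagen and matrix genes 15 fell without CCNF (11 to 21 over the alternatives), Col1a1 by 1.29 in place of 1.84.

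For cell cycle genes the direction differed. The paper reports that siCCNF alone changed the expression of cell-cycle regulators, and the part of those starting levels in the values below was not tested. Of 29 mitosis genes none fell and 14 rose in CCNF-depleted cells (2 to 19 over the alternatives), with a median of 0.27 where it had been -0.45, and the interaction was positive and past the threshold for 25. Of 38 DNA replication genes 12 rose (3 to 19) and none fell there, with a median of 0.28, and the interaction was positive for 27. Cenpa, which fell by 0.75 with CCNF, rose by 0.31 without it (interaction 1.05, adjusted p = 1.92e-05), and Tpx2 fell by 0.41 and rose by 0.31. The rise without CCNF did not pass under 5 of 14 alternatives for Cenpa (highest adjusted p = 0.13) and 2 for Tpx2 (0.0554), while both interactions passed under all 14. The interferon list, with a median of -0.077, had no member that passed in CCNF-depleted cells (at most 1 over the alternatives). With 3.00% of all genes tested higher and 2.19% lower there, none of 28 is near the share of all genes.

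**Figure D5:**
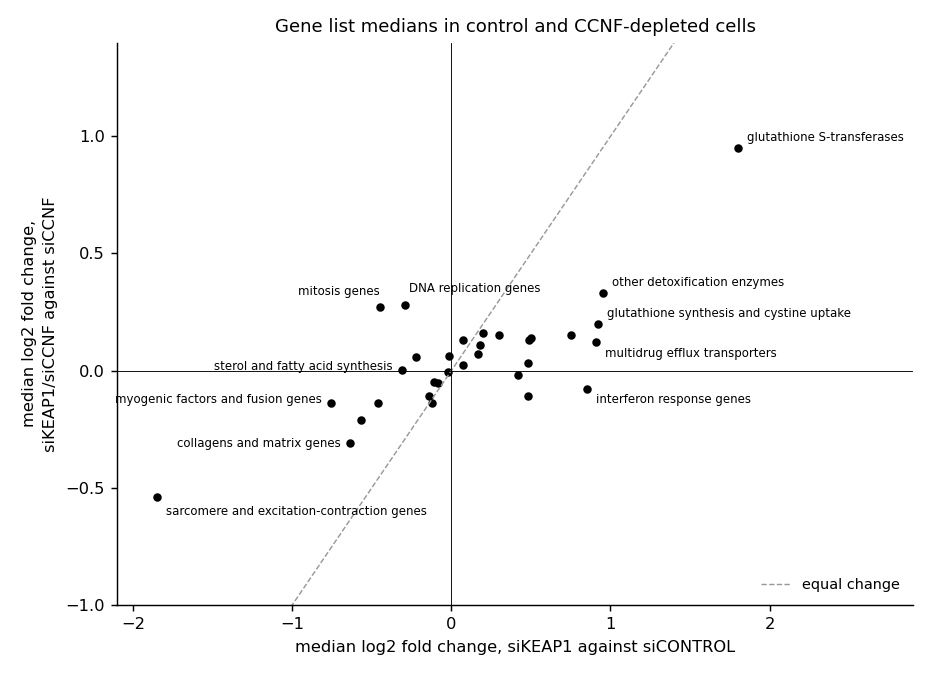
Each point is 1 of the 32 gene lists, with its median log2 fold change between siKEAP1 and siCONTROL on the horizontal axis and between siKEAP1/siCCNF and siCCNF on the vertical axis. Glutathione S-transferases lie highest on both axes (1.80 and 0.95), sarcomere genes lowest (-1.85 and -0.54), and the mitosis and DNA replication lists lie below 0 on the first axis and above 0 on the second.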

How the data were processed

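Poly(A)-selected RNA of C2C12 cells was sequenced from 4 groups of 3 biological replicates. The authors deposited 1 table with a count of reads per gene for each library, without normalization, and FPKM values made by their service provider. Per the labels, GRCm39 and HISAT2 were named in the submitters' processing notes, but the gene coordinates are those of GRCm38. The counting tool, annotation and strand setting are not given in the sources used here. Fold change and p-value columns of the authors' comparisons were not used.

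Groups followed the treatment labels. Counts of all 12 libraries were fitted in edgeR 4.0.16 (R 4.3.3) with TMM factors, filterByExpr and 4 group means, and siKEAP1 was compared with siCONTROL by the quasi-likelihood test (two-sided, Benjamini-Hochberg over 15122 genes). A gene changed at adjusted p under 0.05, and by more than 2-fold where stated. Errors are standard errors of the log2 fold change with n = 3 per group, derived from the F statistic of that test. They rest on the spread estimated over all 12 libraries, not on the 3 replicates alone. Libraries held 18464209 to 37743198 reads, and floors are 3 counts per library and cover counting error only. A total of 26448 genes had no read in any library. The script was tested on simulated counts. Alternatives were DESeq2 1.42.0, limma 3.58.1 on log2(FPKM + 1), total library sizes, no filter or a minimum of 10 counts, the 6 libraries alone, a replicate block, removal of a gene length trend by a spline with 5 degrees of freedom, and each library left out.

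Genes were named by a rule: Keap1, every measured member of the KEAP1-NRF2 regulators, the 10 largest rises and 10 largest falls among genes that changed whose mean level reached 1 log2 CPM and whose libraries did not overlap between the groups, and from each other list up to 4 changed members with the largest change at that mean and up to 3 with the highest CPM. Others were named to spell out small counts, after their values were seen. The members and all lists were chosen with earlier results of these data known. Leaving out siCONTROL replicate 1 for the list counts, the alternatives for calls in CCNF-depleted cells (DESeq2, a replicate block and each of the 12 libraries left out) by list and gene, and the additional lists were chosen after seeing the data. Some genes that the rule names are not reported here.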

Additional observations from a re-analysis of the deposited data

Results flagged for a closer look

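The effect of siKEAP1 differed between cells with and without CCNF for 3181 genes, tested as the interaction of the 2 depletions in edgeR over all 12 libraries. Genes named in the text are listed here where that interaction passed at adjusted p under 0.05 and was larger than 2 on the log2 scale. As Keap1 itself was less depleted in siKEAP1/siCCNF, the part of the depletion in these differences was not tested. Many of these genes were named for a large change between siKEAP1 and siCONTROL, which is also a term of the interaction. That choice favours an interaction of opposite sign and a value nearer 0 without CCNF, so the signs below are a description only. Over all genes tested 1582 interactions that passed were negative and 1599 positive.

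For most genes raised by siKEAP1 that are listed here the log2 fold change was nearer 0 without CCNF, and the interaction was negative. Among detoxification genes it was -7.94 for Gsta3, which had no read in siCONTROL so that this value rests on the fit, -2.52 for Mgst1, -2.68 for Aldh3a1, -4.97 for Cyp1a1, -4.14 for Abcc3, -2.16 for Slc6a9 and -2.15 for Aldh1l1. Among the other rises it was -3.51 for Ppl, -2.34 for Krt19, -4.34 for Selp, -4.08 for Ptges, -3.44 for Lipn, -3.77 for Prkcb, -3.41 for Gm20658 and -2.95 for Vipr2, whose reads cannot be told apart, -2.57 for Lcn2, -2.05 for Mx1, -2.60 for Cd68, -3.0 for Mmp13 and -5.64 for Mmp10. The EGF receptor ligands had -2.01 for Tgfa, -2.27 for Btc and -2.0 for Areg. Mgll (-2.07) and Adcy8 (-5.55) were of opposite sign with and without CCNF. Mgll had log2 fold changes of 1.12 and -0.95 (adjusted p = 0.0193) and Adcy8 of 3.39 and -2.16 (adjusted p = 0.0312) in cells with and without CCNF, and the values without CCNF did not pass without siCCNF replicate 1 or siKEAP1/siCCNF replicate 2. Gapdh (-6.08) was at 168, 11.1 and 203 CPM in the siKEAP1 libraries, and its log2 fold change without CCNF was -2.97 (adjusted p = 0.0951).

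For the genes listed that siKEAP1 lowered the interaction was positive, and all had a log2 fold change nearer 0 without CCNF, with Omd above 0 (0.53, adjusted p = 0.154). It was 5.78 for Myog, 2.58 for Mymk, 5.17 for Actc1, 2.66 for Acta1, 3.18 for Tnnt1, 2.93 for Atp2a1, 2.36 for Chrng, 4.48 for Rbm24 and 2.19 for Heyl. In the IGF axis it was 2.93 for Igf1, 4.27 for H19 and 2.40 for Igfbp5. Secreted and matrix genes had 2.29 for Adamts5, 3.50 for C1qtnf3, 2.87 for Fmod, 3.15 for Fndc1, 2.62 for Ogn, 2.39 for Aspn and 3.40 for Omd, and Pdlim3 and Islr2 had 3.35 and 3.51. Starting levels also differed between siCONTROL and siCCNF. The means were 28.6 and 4.84 CPM for Aspn, 1932 and 746 CPM for Ogn and 28.1 and 9.04 CPM for Omd. Fmod went the other way, at 44.5 and 72.0 CPM. The part of these starting levels in the interactions was not tested.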

How the results depend on the processing

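Keap1 kept its direction and its call under all 14 alternatives. The number of genes changed by more than 2-fold (1735) fell to 1062 (664 higher) with a minimum of 10 counts in every library and to 623 (400 higher, 223 lower) with limma on log2(FPKM + 1), and was 6133 (3083 higher, 3050 lower) at adjusted p under 0.05 with no fold threshold. Leaving out 1 library gave 1612 to 1808. With DESeq2 1709 of the 1735 genes were shared. The share of higher among the calls lay between 62.5% and 66.8% over the other normalizations, filters and tools. Deviations of same-numbered siCONTROL and siKEAP1 libraries were correlated at r = 0.168, 0.0364 and 0.0886, and those of differently numbered ones at -0.12 to 0.065. The labels give only a replicate number, so whether same-numbered libraries were handled together is not known. Under a replicate block 1733 genes changed, 1701 of them shared. A gene under the floor of 3 counts in a library cannot be told from absent at this depth.

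In CCNF-depleted cells the number of genes at adjusted p under 0.05 (785) was 1257 with DESeq2 and 363 to 1404 with 1 library left out, highest without siCONTROL replicate 1, and 363, 484 and 367 without siCCNF replicates 1, 2 and 3 and 402 without siKEAP1/siCCNF replicate 2. The promoter core was in 13.9% of all genes with a window when only the 250 bases before the start were searched.

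Median log2 fold changes of lists moved by more than the spread between replicates in these cases. They cover the members that passed the low-count filter in each fit, so that the sarcomere median without siCONTROL replicate 1 is -1.49 here and -1.51 over the 37 genes of the report. With a minimum of 10 counts in every library they were 1.47 for glutathione S-transferases, 0.70 for other detoxification enzymes, -0.52 for myogenic factors and -1.02 for sarcomere genes. With limma on log2(FPKM + 1) they were 0.57 for glutathione synthesis, 1.05 for glutathione S-transferases, 0.67 for other detoxification enzymes, -0.50 for myogenic factors, -0.44 for sarcomere genes and 0.26 for plakins and keratins. With no low-count filter they were -0.52 for myogenic factors and 1.23 for plakins and keratins, and with the length trend removed -0.10 for the regulators. With 1 library left out they ranged from -0.73 to -0.50 for the IGF axis, -0.75 to -0.20 for the acetylcholine receptor genes, 0.65 to 0.96 for acute-phase genes, 0.77 to 1.11 for glutathione synthesis, 0.13 to 0.25 for chaperones, 0.14 to 0.23 for iron and heme, -0.53 to -0.44 for mitosis, -0.23 to -0.0027 for RNA-binding regulators, -0.82 to -0.62 for myogenic factors, 0.32 to 0.62 for plakins and keratins and -2.39 to -1.49 for sarcomere genes.

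Of 246 genes named, 212 kept direction and call under every alternative. The 9 that reversed in sign under 1 or more alternatives did not pass the test. With 1 library left out, Atp2a2 ranged from -0.072 to 0.092, Btrc from -0.024 to 0.056, Cbs from -0.36 to 0.071, Dcaf11 from -0.082 to 0.039, Egf from -0.42 to 0.0044, Fem1b from -0.057 to 0.12, Nfe2l3 from -0.24 to 1.67, Palb2 from -0.12 to 0.035 and Prdx2 from -0.16 to 0.074. Btrc was at -0.10 with the length trend removed. With the replicate block Chac1 lost its call (adjusted p = 0.0512), Agrn gained one (0.0127) and the other named genes kept theirs. The causes were not tested.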

Other observations

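Several gene groups outside the lists of the report moved as well. They were put into lists after their values had been seen, so their counts describe these libraries and are no independent support. Of 11 measured genes for ligands and receptors of the EGF receptor family 6 rose, 5 by more than 2-fold, and none fell, with a median log2 fold change of 0.70, but 2 fell without siCONTROL replicate 1. The 6 included the receptor Erbb3 (1.01, adjusted p = 0.0199, lost without siCONTROL replicate 2 or 3 or siKEAP1 replicate 1 or 3, at 0.0575 to 0.0759), and Egf itself had a log2 fold change of -0.15 and did not pass (adjusted p = 0.698). Tgfa, transforming growth factor alpha, was at 2.60, 4.50 and 3.56 CPM in siCONTROL and at 21.2, 21.8 and 22.2 CPM in siKEAP1 (2.62), and Btc, betacellulin, at 4.12, 4.67 and 5.30 CPM and 26.7, 26.7 and 26.8 CPM (2.51). Areg, amphiregulin, rose from 6.90, 4.99 and 5.10 CPM to 33.1, 38.4 and 33.0 CPM (2.61) and Ereg, epiregulin, from 20, 26.9 and 24.4 CPM to 75.8, 88.1 and 87.0 CPM (1.82). No gene of this list passed between siKEAP1/siCCNF and siCCNF (at most 1 over the alternatives), near the 3.00% higher and 2.19% lower over all genes tested.

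Small leucine-rich proteoglycans, which coat collagen fibrils, fell in 8 of 10 measured cases, 6 by more than 2-fold, and Tsku rose (0.97). Ogn, osteoglycin, fell from 1984, 1894 and 1919 CPM to 260, 205 and 216 CPM (-3.09), Aspn by 3.07, Omd by 2.88 and Prelp by 1.90. Of 10 lamins and linker histones 5 fell and none rose, 4 by more than 2-fold. Lmnb1, lamin B1, fell from 304, 292 and 288 CPM to 72.8, 63.8 and 63.3 CPM (-2.14) and the linker histone H1f0 by 1.88. In CCNF-depleted cells none of these 10 passed (at most 2 over the alternatives), near the 3.00% higher and 2.19% lower over all genes tested. Lmnb1 was at 77.3, 75.9 and 76.2 CPM in siCCNF and at 64.4, 63.8 and 69.5 CPM in siKEAP1/siCCNF. H1f0, at 469, 336 and 313 CPM in siCONTROL, was at 182, 164 and 157 CPM in siCCNF and 135, 131 and 137 CPM in siKEAP1/siCCNF. For both genes the siCCNF level was thus already below that of siCONTROL. Of 33 lysosomal genes 20 rose and 3 fell, among them Ctsb, cathepsin B, from 555, 612 and 628 CPM to 1272, 1382 and 1345 CPM (1.16), Ctsd by 1.25 and Lipa, the acid lipase, by 1.07. Of 15 mitochondrially encoded RNAs 11 rose and none fell. The ribosomal mt-Rnr2 went from 881, 942 and 935 CPM to 2882, 3218 and 2243 CPM, in libraries selected for poly(A), which such RNA largely lacks, so its level also depends on that selection.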
